A study of Mus musculus with 2 samples.

Results

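The immunoproteasome and peptide trimming genes comprise 6 genes, namely Psmb8, Psmb9, Psmb10, Psme1, Psme2 and Erap1, chosen by name for their place in antigen processing. Members were represented by every probe set annotated with exactly 1 of these symbols. This gave 7 probe sets for 5 genes, of 34945 single-gene probe sets for 18193 genes in all. Psme2 had no such probe set, because the probe set that carries its symbol also carries that of Psme2b, so no value is given for it.

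The liver metastatic cells of the 4T1-3R line are written 4T1-3R_L. They were isolated from an in vivo experiment on liver metastasis and kept in culture. They were set against cultured 4T1 parental cells. The 4T1 line is a mouse mammary carcinoma line from a BALB/c mouse, so both cultures share that origin, and neither carries a treatment or engineered allele in the labels. Total RNA of each was hybridised to 1 Affymetrix array, so there is no replicate spread, no test was run, and every difference describes these 2 arrays.

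The proteasome is a barrel-shaped protease that cuts ubiquitin-tagged proteins into peptides. In the immunoproteasome, which interferon-gamma induces and which white blood cells make without it, the catalytic subunits PSMB5, PSMB6 and PSMB7 are exchanged for PSMB8, PSMB9 and PSMB10, which shifts the cleavage sites towards peptides that suit MHC class I. PSME1 and PSME2 form the PA28 ring that caps the barrel, the TAP transporter carries the peptides into the endoplasmic reticulum, and ERAP1 trims their amino-terminal ends there before they load onto class I molecules.

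The members did not move together. Psmb8 and Psmb9 were 1.68-fold and 1.84-fold higher in 4T1-3R_L cells, while Psmb10, the third of the exchanged catalytic subunits, was 3.17-fold lower and Erap1 was 1.89-fold lower. Psme1 was within 1.13-fold of the parental signal. Psmb10 was the 1 member of 5 at least 2-fold apart, as were 10.7% of all measured genes.

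The sequences around the transcription starts of the 4 members furthest from a ratio of 1 are shown because they let these opposite differences be set beside the letters of their promoters. Each is the RefSeq promoter of build GRCm38.p6, 250 bases before to 50 bases after the start. Capitals mark matches to either of 2 interferon-response motifs, the interferon-stimulated response element core GAAANNGAA (TTCNNTTTC on the other strand) and the gamma-activated site TTCNNNGAA, which reads the same on both strands.
Psmb9, chr17:34187281-34187580, minus strand: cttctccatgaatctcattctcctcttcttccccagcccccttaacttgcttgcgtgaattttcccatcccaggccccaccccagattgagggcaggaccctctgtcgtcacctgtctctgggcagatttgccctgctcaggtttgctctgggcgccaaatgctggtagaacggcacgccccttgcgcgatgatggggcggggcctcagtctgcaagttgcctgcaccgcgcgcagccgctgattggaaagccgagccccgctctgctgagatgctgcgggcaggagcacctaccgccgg
Psmb8, chr17:34197945-34198244, plus strand: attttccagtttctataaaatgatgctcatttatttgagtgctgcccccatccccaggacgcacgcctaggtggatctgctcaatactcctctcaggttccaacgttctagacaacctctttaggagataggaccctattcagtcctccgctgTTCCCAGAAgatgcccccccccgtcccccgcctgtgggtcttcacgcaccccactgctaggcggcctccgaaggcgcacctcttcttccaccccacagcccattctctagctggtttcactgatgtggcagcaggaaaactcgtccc
Psmb10, chr8:105938343-105938642, minus strand: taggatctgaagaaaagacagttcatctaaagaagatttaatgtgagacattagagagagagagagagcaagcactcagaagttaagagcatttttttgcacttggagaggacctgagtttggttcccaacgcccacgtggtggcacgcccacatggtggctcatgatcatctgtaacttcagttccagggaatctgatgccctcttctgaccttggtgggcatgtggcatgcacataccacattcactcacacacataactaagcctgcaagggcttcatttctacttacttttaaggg
Erap1, chr13:74639603-74639902, plus strand: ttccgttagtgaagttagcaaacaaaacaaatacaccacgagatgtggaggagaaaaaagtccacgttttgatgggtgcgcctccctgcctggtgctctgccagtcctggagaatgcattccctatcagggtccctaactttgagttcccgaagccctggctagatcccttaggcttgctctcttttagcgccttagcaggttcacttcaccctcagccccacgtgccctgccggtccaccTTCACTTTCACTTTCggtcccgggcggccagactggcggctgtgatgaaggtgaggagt

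The Psmb8 window held 1 gamma-activated site match, TTCCCAGAA, starting 97 bases before the start site. The Erap1 window held 2 overlapping response element matches, both TTCACTTTC, which begin 9 and 3 bases before the start site, and the run of capitals crosses it. No match to either motif lies in the Psmb9 and Psmb10 windows. Psme1, not shown, held TTCGCTTTC from base 11 of the transcript. For a background, the first start site of each of 27025 genes with a promoter was read. The response element core was present in 8.57% of these windows and the gamma-activated site in 8.47%. Over the 9058 of them for measured genes the shares were 6.71% and 6.65%. A match is a description of letters and not a binding site, and the higher and the lower members did not divide by these matches. The Psmb9 window shares 275 of its bases with the promoter of Tap1, which is read from the opposite strand and encodes a subunit of the peptide transporter.

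The deposited values are MAS5 signals on a linear scale, and 90.6, the median signal over both arrays, served as a floor in place of detection calls. A gene counted as measured if its brightest probe set was at or above that floor on either array, which held for 11135 genes and for all 5 members with a single-gene probe set. The log2 ratio is 4T1-3R_L over parental throughout. Among measured genes its median was -0.01, with quartiles of -0.36 and 0.37. As a gauge of measurement error, the 2 brightest probe sets of a gene differed in log2 ratio by a median of 0.34 and by up to 0.85 at the 90th percentile, over 4737 genes with at least 2 probe sets above the floor on both arrays. That gauge covers probes on the same array and not the spread between cultures.

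Scaling moved all values together. The hybridisation controls, labelled bacterial and phage transcripts added to the mix, had a geometric mean signal of 2538 on the 4T1-3R_L array and 1688 on the parental array. Scaling to them instead of to the trimmed mean put the median measured gene at -0.55, so small positive ratios turn negative under it, and 21.0% of measured genes were then 2-fold lower or more and 2.15% 2-fold higher or more. Counts past 2-fold stand for the trimmed mean scaling unless the other is named. The 3′ over 5′ signal ratio of Gapdh was 1.02 in 4T1-3R_L cells and 0.789 in parental cells, and that of Actb was 1.59 in 4T1-3R_L cells and 1.22 in parental cells. The part of these differences in the results was not tested.

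Psmb8 encodes LMP7, the chymotrypsin-like subunit that replaces PSMB5. Its main probe set had a signal of 2516 in 4T1-3R_L cells and 1497 in parental cells. Its second probe set had 127.0 in 4T1-3R_L cells and 79.1 in parental cells, where it lay under the floor, so that it was at least 1.40-fold higher. Both probe sets thus had the higher signal in 4T1-3R_L cells. The log2 ratio of 0.75 on the main probe set was matched or exceeded by 1207 measured genes (10.8%), and it was 0.16 under the scaling to hybridisation controls. The 0.75 lay inside the 0.85 at the 90th percentile between probe sets of 1 gene.

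Psmb9 encodes LMP2, which replaces PSMB6. Its single probe set had a signal of 925.5 in 4T1-3R_L cells and 502.7 in parental cells, the higher value again in 4T1-3R_L cells. The log2 ratio was 0.88, matched or exceeded by 903 measured genes (8.11%), and 0.29 under the scaling to hybridisation controls. The 0.88 was just past the 0.85 at the 90th percentile between probe sets of 1 gene. Neither Psmb8 nor Psmb9 reached 2-fold, a difference that 6.22% of measured genes reached on the higher side.

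Psmb10 encodes MECL-1, which replaces PSMB7. Its single probe set had a signal of 686.1 in 4T1-3R_L cells and 2176 in parental cells. The log2 ratio was -1.66. Only 91 measured genes (0.817%), Psmb10 among them, were as low or lower, against 4.48% that were lower by 2-fold or more. The log2 ratio stayed between -2.25 and -1.41 in all 11 alternative settings. No second probe set was there to check it, and the difference is wider than the 0.85 at the 90th percentile between probe sets of 1 gene.

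Psme1 encodes the alpha subunit of PA28, which opens the gate of the proteasome barrel. Its signal was 4400 in 4T1-3R_L cells and 3877 in parental cells. The log2 ratio of 0.18 lay inside the quartiles of all measured genes and turned to -0.41 under the scaling to hybridisation controls, which is 0.15 above the median gene there. No direction can be given for Psme1.

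Erap1 encodes the aminopeptidase of the endoplasmic reticulum that trims class I peptides. Its main probe set had a signal of 240.5 in 4T1-3R_L cells and 454.1 in parental cells. On the second probe set the signal was 86.2 in 4T1-3R_L cells, under the floor, and 185.2 in parental cells, at least 2.04-fold lower. Both probe sets were lower in 4T1-3R_L cells. The main log2 ratio was -0.92, and 626 measured genes (5.62%) were as low or lower. It was -1.51 under the scaling to hybridisation controls. In size the -0.92 was just past the 0.85 at the 90th percentile between probe sets of 1 gene.

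**Figure D1:**
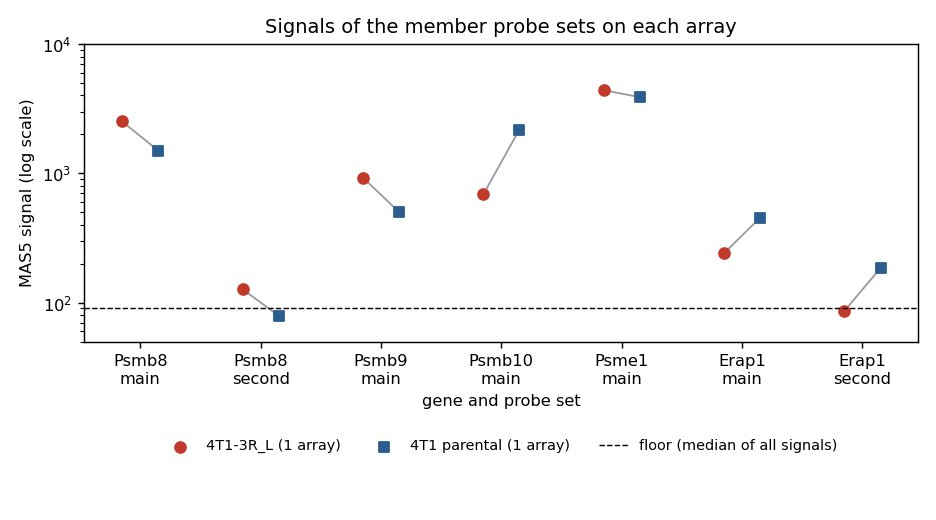
MAS5 signal (log scale) of each single-gene probe set of the 5 members, with the 4T1-3R_L array as circles and the parental array as squares, 1 array each, and the floor of 90.6 as a dashed line. Psmb8 and Psmb9 have the higher signal in 4T1-3R_L cells, Psmb10 (686.1 against 2176) and Erap1 the lower one, and only the second probe sets of Psmb8 and Erap1 cross the floor.

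**Figure D2:**
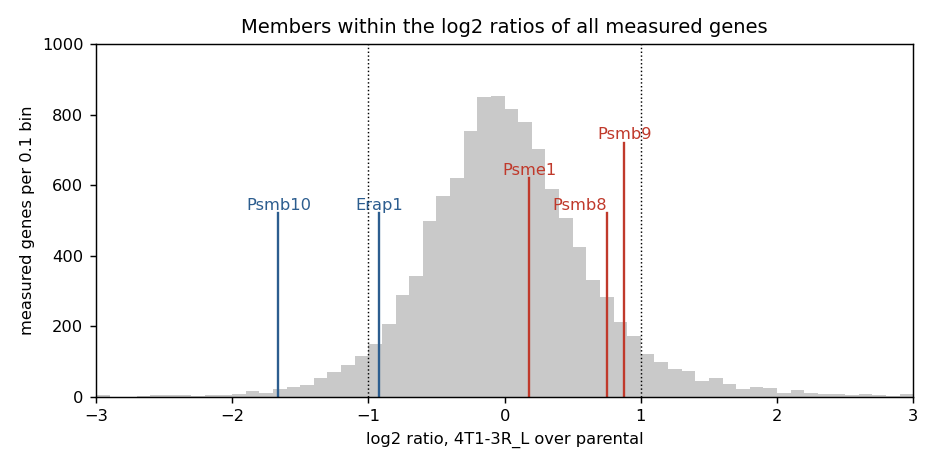
Histogram of the log2 ratios, 4T1-3R_L over parental, of the 11135 measured genes between -3 and 3 in bins of 0.1, with a line at the ratio of each member and dotted lines at the 2-fold limits. Psmb10 at -1.66 is the 1 member outside the limits, and the other members lie between -0.92 and 0.88.

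The exchanged subunits were next set against the constitutive subunits whose places they take. Such a within-array difference shows unequal change and does not depend on how the arrays are scaled as a whole. Psmb5, the counterpart of Psmb8, had a signal of 4927 in 4T1-3R_L cells and 4863 in parental cells, a log2 ratio of 0.02. Psmb6, the counterpart of Psmb9, had 3096 in 4T1-3R_L cells and 4645 in parental cells, a log2 ratio of -0.59. Psmb7, the counterpart of Psmb10, had 6849 in 4T1-3R_L cells and 10162 in parental cells, a log2 ratio of -0.57. Under the hybridisation control scaling the log2 ratios were -0.57 for Psmb5, -1.17 for Psmb6 and -1.16 for Psmb7. Thus 2 of these 3 were past 2-fold lower, against 0 in the trimmed mean scaling, beside 21.0% and 4.48% of all measured genes.

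The exchange pairs therefore differed in sign. Psmb8 gained 0.73 on Psmb5 on the log2 scale, a 1.66-fold change in their ratio. That lies inside the 0.85 at the 90th percentile between probe sets of 1 gene, which the other pairs exceed. Psmb9 gained 1.47 on Psmb6, a 2.76-fold change in their ratio, with Psmb6 itself at -0.59. For Psmb10 and Psmb7 the difference was -1.10, a 2.14-fold change the other way. Across the 11 alternatives the Psmb9 and Psmb6 difference lay between 1.34 and 1.54 and that of Psmb10 and Psmb7 between -1.10 and -0.87. The Psmb8 and Psmb5 difference lay between 0.60 and 0.87 in the 10 alternatives that gave it, since neither gene's main probe set is kept when only plain _at probe sets are used.

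Within the wider proteasome the catalytic immunosubunits stood at both ends. Of 46 measured genes for core, regulator, assembly and activator proteins, Psmb9 had the highest log2 ratio, Psmb8 the next and Psmb10 the lowest. The third highest was the core subunit Psma6 at 0.72, which differs from Psmb8 by far less than probe sets of 1 gene do. The 42 genes that are no members had a median of -0.20 and ranged from -1.14 to 0.72. Past 2-fold, 2 were lower and 0 higher, beside 4.48% and 6.22% of all measured genes. The 2 lower ones were the lid subunit Psmd7 (1533.6 in 4T1-3R_L cells and 3380 in parental cells) and the assembly chaperone Psmg2 (1005.8 in 4T1-3R_L cells and 2181 in parental cells).

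By group, the other 11 core subunits had a median log2 ratio of 0.06, and -0.53 under the hybridisation control scaling, which is 0.02 above the median gene there. None of them was 2-fold apart in the trimmed mean scaling, beside 10.7% of all measured genes. Under the other, 2 were 2-fold lower or more, beside 21.0%. The 17 measured subunits of the 19S regulator, which binds and unfolds ubiquitin-tagged proteins, had a median of -0.19, with 13 of 17 negative. The median of all measured genes was -0.01. Other probe sets of some of these subunits had the opposite sign, in both directions. Past 2-fold, 1 of the 17 was lower, or 4 under the hybridisation control scaling, beside 4.48% and 21.0% of all measured genes. Next to Psmd7 the lowest were the ATPase Psmc5 at -0.74, the base subunit Psmd2 at -0.49 and the lid subunit Psmd13 at -0.42. The 8 assembly factors had a median of -0.39. Of these, 1 was past 2-fold lower, or 4 under the hybridisation control scaling, beside the same 4.48% and 21.0%. Besides Psmg2 at -1.12 the furthest from 0 were the chaperones Psmg4 at -0.69, Psmg1 at -0.64 and Psmd10 at -0.52.

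On their brightest probe sets the activators other than PA28 alpha and beta had negative ratios. Psme3, which encodes the nuclear PA28 gamma ring, had a signal of 1022.3 in 4T1-3R_L cells and 1814 in parental cells, or -0.83 in log2 ratio, and its second measured probe set had -0.92. The log2 ratio of Psme4, which encodes the PA200 activator, was -0.41, and that of the inhibitor Psmf1 was -0.45. The other probe sets of Psmf1 went the other way, at 0.12, 0.02 and, with the parental signal under the floor, 0.31. No direction can be given for Psmf1. By brightest probe set none of the 3 genes reached 2-fold. All 3 did on the lower side under the hybridisation control scaling, as did 21.0% of all measured genes. Psme1 at 0.18 lay above the brightest probe set of all 3.

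Other peptidases that trim or destroy antigenic peptides were compared with Erap1. Of 8 listed, 6 were measured. Past 2-fold, 1 was lower and 0 higher, beside 4.48% and 6.22% of all measured genes. Under the hybridisation control scaling 3 were lower, beside 21.0%. The median log2 ratio of the 6 was -0.50. The lower gene was Ide, the insulin-degrading enzyme, with a signal of 1398 in 4T1-3R_L cells and 4467 in parental cells, a log2 ratio of -1.68. All 5 of its probe sets were lower in 4T1-3R_L cells, by -0.76 to -2.13 on the log2 scale. Thop1, a cytosolic peptidase that destroys class I peptides, was at -0.86 and the leucine aminopeptidase Lap3, which interferon-gamma induces, at -0.83, both close to Erap1 at -0.92. The puromycin-sensitive aminopeptidase Npepps was at 0.49 in the trimmed mean scaling. Under the hybridisation control scaling it was at -0.09, which is 0.46 above the median gene there.

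The genes that act after the proteasome on the class I route gave a higher median. Past 2-fold, 2 of 10 measured were higher and 1 lower, beside 6.22% and 4.48% of all measured genes. Under the hybridisation control scaling 0 were higher and 1 lower, beside 2.15% and 21.0%. The median log2 ratio of the 10 was 0.47. Under the hybridisation control scaling that median was -0.12, which is 0.44 above the median gene there. Tap1 had a signal of 423.7 in 4T1-3R_L cells and 195.3 in parental cells, a log2 ratio of 1.12, while its other 3 probe sets stayed below the floor on each array. H2-K1, a class I heavy chain whose probe sets can share transcripts with its relatives, had a log2 ratio of 1.05. Its other probe sets were at 0.73, 0.87 and 1.07, so not all of them reached 2-fold.

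The other named loading genes differed in sign. The log2 ratio of Tap2, the partner of TAP1, was 0.45. Under the hybridisation control scaling it was -0.14, which is 0.41 above the median gene there. B2m, the class I light chain, had a signal of 21801 in 4T1-3R_L cells and 12006 in parental cells, a log2 ratio of 0.86. The log2 ratio of Tapbp, which bridges TAP and class I, was 0.26. Under the hybridisation control scaling it was -0.33, which is 0.22 above the median gene there. The second Tapbp probe set went the other way, with 356.5 in 4T1-3R_L cells and 508.1 in parental cells, a log2 ratio of -0.51. Tapbpl, a peptide editor related to Tapbp, was the 1 gene at least 2-fold lower, with 97.8 in 4T1-3R_L cells and 244.6 in parental cells, the first close to the floor.

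**Figure D3:**
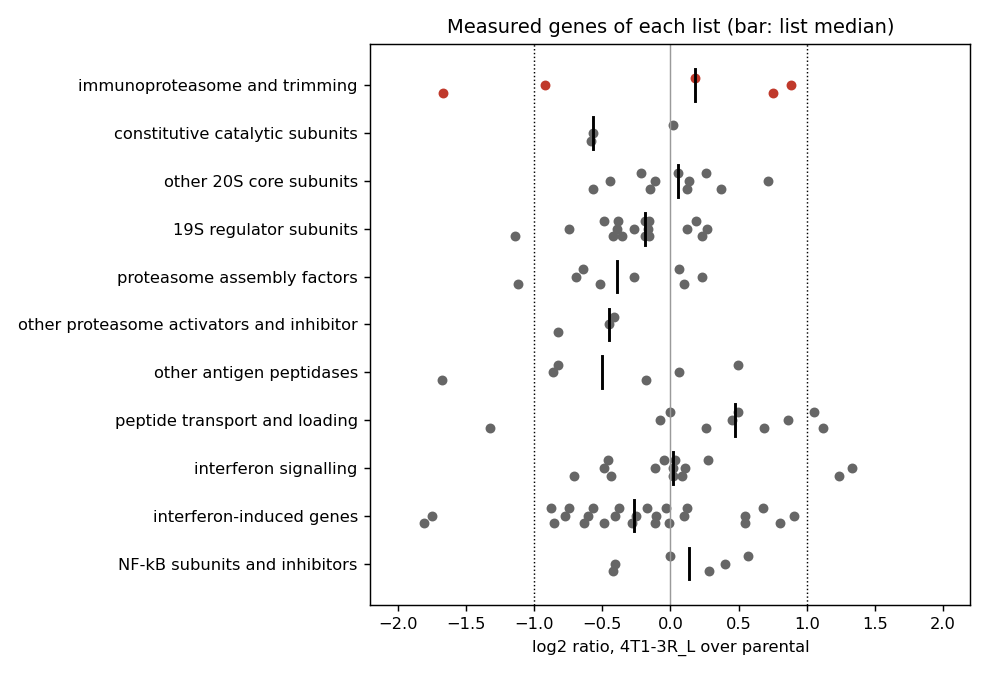
Log2 ratio, 4T1-3R_L over parental, of each measured gene (points) in the member list and 10 other lists, with the list median as a bar and dotted lines at 2-fold. The medians run from -0.57 for the constitutive catalytic subunits to 0.47 for peptide transport and loading, and the members spread from -1.66 to 0.88. Under the hybridisation control scaling every list median shown is negative, and the median measured gene is itself at -0.55. The member, other 20S core, peptide transport and loading, and NF-kB medians lie above that gene there, and the others below it.

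Psmb8, Psmb9, Psmb10, Psme1 and Tap1 are textbook targets of interferon-gamma, and NLRC5 drives class I genes. Nlrc5 had a signal of 728.5 in 4T1-3R_L cells and 289.8 in parental cells, a log2 ratio of 1.33. Irf1, the transcription factor through which interferon-gamma acts on the immunoproteasome genes, had 1948.5 in 4T1-3R_L cells and 3183 in parental cells, a log2 ratio of -0.71. The interferon signalling list held 14 measured genes. Of these, Nlrc5 and the feedback inhibitor Socs3 (log2 ratio 1.24) were past 2-fold higher and 0 lower, beside 6.22% and 4.48% of all measured genes. The other probe sets of Socs3 were at 0.94 and 0.60. Under the hybridisation control scaling 0 of the list were past 2-fold higher and 4 lower, beside 2.15% and 21.0% of all measured genes. The list median was 0.02, and -0.57 under the hybridisation control scaling, against -0.55 for the median gene there. The next furthest from 0 was Stat2, a transcription factor of the type I interferon response, at -0.49. Its second probe set went the other way, with 118.0 in 4T1-3R_L cells and 98.8 in parental cells, or 0.26 in log2 ratio.

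Genes that interferons induce outside this pathway were mostly negative. Of 26 measured, 19 had negative and 7 positive log2 ratios, where the median of all measured genes was -0.01. Past 2-fold, 2 of the 26 were lower and 0 higher, beside 4.48% and 6.22% of all measured genes. Under the hybridisation control scaling 25 were measured and 10 were past 2-fold lower, beside 21.0% of all measured genes. The antiviral gene Rsad2 had a signal of 154.9 in 4T1-3R_L cells and 542.8 in parental cells, and its neighbour Cmpk2 had 56.5 in 4T1-3R_L cells, under the floor, and 304.2 in parental cells. The guanylate-binding protein gene Gbp7 was highest at 0.91 and the antiviral gene Ifit1 was at -0.87. The list median of -0.27 lay below that of all measured genes. Under the hybridisation control scaling it was -0.84, against -0.55 for the median gene there. Among 6 measured NF-kB genes 0 were 2-fold apart, or 1 lower under the hybridisation control scaling, beside 10.7% and 21.0% of all measured genes. Their median was 0.14. The inhibitor Nfkbia was at 0.57, the subunits Nfkb2 and Rela at -0.42 and -0.41, and the inhibitor Nfkbie at 0.40. Under the hybridisation control scaling all 6 genes of the list were negative. The list median there was -0.30, which is 0.25 above the median gene.

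The members lie in 4 places in the genome. Psmb9, Tap1, Psmb8 and Tap2 follow each other in the class II part of the MHC on chromosome 17, with no other gene of the table between Psmb9 and Tap1, Tap1 and Psmb8, or Psmb8 and Tap2. The measured genes on both sides were H2-DMa, which loads class II peptides, at 1.37 and H2-Ab1, a class II beta chain, at 1.33. Their parental signals of 114.2 and 102.7 were close to the floor. Beyond H2-DMa the chromatin reader Brd2 was at 0.18, and -0.41 under the hybridisation control scaling, which is 0.14 above the median gene there. The 542 measured genes of chromosome 17 had a median of 0.07.

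Around Psmb10 on chromosome 8 the neighbours did not share its difference. The decapping factor Edc4 was at -0.15 and the kinase Pskh1 at -0.30 on one side. On the other side the cholesterol acyltransferase Lcat was at 0.46, with a parental signal under the floor, and the potassium chloride cotransporter Slc12a4 was at 0.71. The 613 measured genes of the chromosome had a median of -0.26, and 7 of them, Psmb10 included, were as low as Psmb10 or lower.

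Erap1 on chromosome 13 stood beside Cast, the calpain inhibitor calpastatin, with a signal of 3993.5 in 4T1-3R_L cells and 1709 in parental cells and a log2 ratio of 1.22. The other measured neighbours of Erap1 were Zfp825 at -0.35, E430024I08Rik at -0.10 and the elongation factor Ell2 at 0.50. Under the hybridisation control scaling Ell2 was at -0.09, which is 0.46 above the median gene there. Psme1 on chromosome 14 lay between the neighbours Fitm1, which was under the floor in 4T1-3R_L cells and at 99.8 in parental cells, and Emc9 at 0.43, with Dcaf11 at 0.72 and the ubiquitin ligase subunit Rnf31 at 0.43 beyond. Emc9 and Rnf31 were both at -0.16 under the hybridisation control scaling, which is 0.39 and 0.40 above the median gene there. Psme2 lies between Emc9 and Rnf31, and the interferon factor Irf9 beyond it had nearly the same signal on both arrays, a log2 ratio of 0.02.

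**Figure D4:**
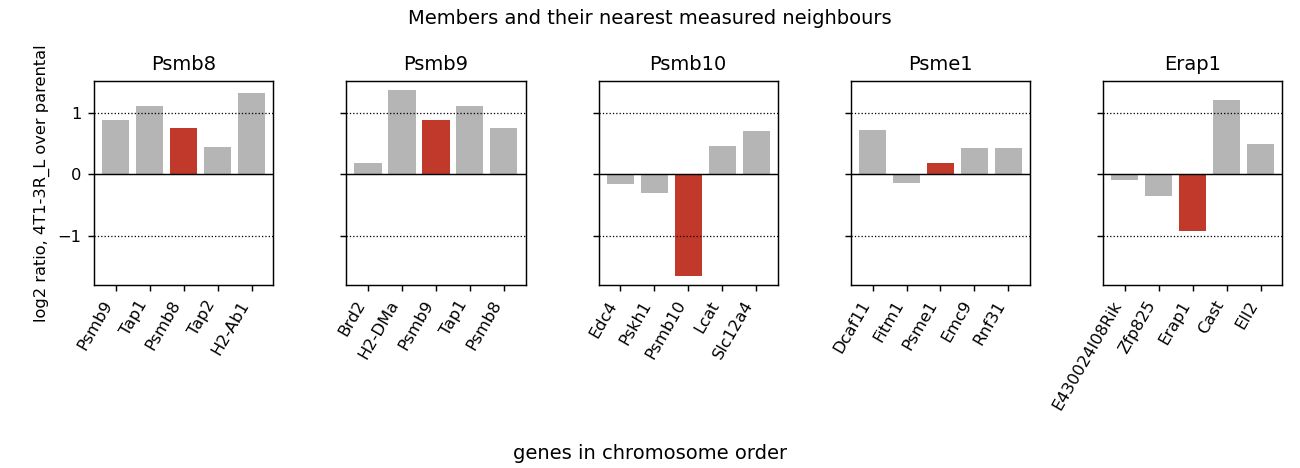
Log2 ratio, 4T1-3R_L over parental, of each member and its 2 nearest measured genes on each side in chromosome order, with dotted lines at 2-fold. The genes from H2-DMa to H2-Ab1 around Psmb9 and Psmb8 lie between 0.45 and 1.37, whereas Psmb10 (-1.66) stands among neighbours between -0.30 and 0.71.

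White blood cells make the immunoproteasome constitutively, so their markers were read on both arrays. Of 23 leukocyte markers with their own probe set, 16 did not reach the floor on either array, among them Ptprc, which encodes CD45, at 26.5 in 4T1-3R_L cells and 21.7 in parental cells, and Tyrobp at 8.7 in 4T1-3R_L cells and 46.5 in parental cells. Of the 7 above it on at least 1 array, the myeloid markers Cd14 and Cd68 had signals of 458.8 and 374.0 in 4T1-3R_L cells and of 748.6 and 388.0 in parental cells. By brightest probe set, the 2 markers at least 2-fold apart went opposite ways. Cd74, the class II invariant chain, was at 1.80. Csf1r, which encodes the receptor for the macrophage growth factor CSF-1, had 88.1 in 4T1-3R_L cells, under the floor, and 1026.4 in parental cells. Its second probe set had 69.0 in 4T1-3R_L cells, under the floor, and 435.2 in parental cells. The third, above the floor on both arrays, had 146.2 in 4T1-3R_L cells and 252.0 in parental cells, or -0.79 in log2 ratio. The signal summed over the brightest probe sets of the 23 markers was 3474.7 in 4T1-3R_L cells and 3454.1 in parental cells. Cd74 and Csf1r offset each other in it, and without them it was 1643.1 in 4T1-3R_L cells and 1926.1 in parental cells. The part of these markers in the member values was not tested. All 6 hepatocyte, 5 endothelial and 6 fibroblast markers with their own probe set stayed below the floor on each array. All 5 carcinoma epithelium markers were above the floor on both arrays, and their levels differed between them. Past 2-fold, Krt14 (170.9 in 4T1-3R_L cells and 5324 in parental cells) and Epcam (1776 in 4T1-3R_L cells and 7536 in parental cells) were lower. The second Epcam probe set was lower by less than 2-fold, at -0.59. Cdh1 was at -0.99, while the luminal keratins Krt8 and Krt18 were at 0.22 and -0.20. Under the hybridisation control scaling all 5 log2 ratios were negative. Krt8 was 0.18 above the median gene there, and the others were below it.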

How the data were processed

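Total RNA of 4T1-3R_L and 4T1 parental cells was biotin-labelled and hybridised to Affymetrix arrays, 1 array each, per the labels' protocols. The authors deposited linear intensity values, which the submitters' processing notes credit to MAS5. Neither its version nor its scaling target is stated. Both arrays had a trimmed mean of 500.003 with 2% cut from either end, so the common scaling applied here changed nothing. Names came from GEO's platform annotation, with 34945 probe sets of 1 symbol, 932 of several and 9160 without a listed gene. Signals under 90.6 were set to that floor and log2 taken. Each gene was read from its brightest single-gene probe set. A fold with 1 side under the floor is a lower bound. Calls are differences of at least 2-fold, and without replicates no test was run.

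The members, lists, alternatives and naming rule were chosen with earlier results of these data known. The rule named all members and exchange partners, Tap1, Tap2, Tapbp, B2m, Irf1, Nlrc5, a gene not reported here, up to 4 genes of each list with ratios furthest from 0, and 2 measured neighbours on each side. Ptprc, Tyrobp, Cd68 and Krt18 were named after their values were seen. With 2 arrays a pattern is 1 difference, so no gene was named for a like pattern. The alternatives were 4 scalings, 2 floors, a pseudocount of 32 with and without the filter, and 2 choices of probe sets. Subtracting chromosome medians was added after the data were seen. Steps ran in Python 3.11.15 with numpy 2.4.6, pandas 2.3.3 and statsmodels 0.14.6, and were tested on simulated data.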

Additional observations from a re-analysis of the deposited data

How the results depend on the processing

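No paired analysis was possible because each group has 1 array. No member other than Psmb10 was 2-fold apart in any of the 11 alternatives, except Erap1 at -1.51 when the arrays were scaled to the hybridisation controls, which gave 2 members at least 2-fold lower. Psmb10 stayed past 2-fold in all 11. The hybridisation control scaling also put Psmb8 at 0.16, Psmb9 at 0.29, Psme1 at -0.41 and the member median at -0.41, against 0.18 with the trimmed mean. Under it the list medians were -1.16 for the constitutive catalytic subunits, -0.53 for the other core subunits, -0.78 for the 19S regulator, -0.98 for assembly factors, -1.04 for other activators and the inhibitor, -1.09 for other peptidases, -0.12 for peptide transport and loading, and -0.57 for interferon signalling. The median measured gene was at -0.55 under that scaling. Subtracting chromosome medians, the alternative added later, left Psme1 at -0.02. Psmb8 had no value with plain _at probe sets only. Measured genes at least 2-fold higher and lower numbered 693 and 499, against 243 and 2378 with the hybridisation control scaling, and 449 were higher with the median over probe sets. Second probe sets of Psmb8 and Erap1, each under the floor on 1 array, give bounds only, and Psmb9, Psmb10 and Psme1 have 1 probe set each.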
